A study of Rattus norvegicus with 138 samples.

Results

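The genes described here are 31 genes of sterol and fatty acid synthesis, their regulators, and the genes of cholesterol storage and export, measured by RNA-seq in the rat tibialis anterior (TA) muscle after volumetric muscle loss (VML). They were taken by symbol from a list whose rule uses no measured value, although it was drawn up with earlier results of these data known, and all 31 were among the 16181 symbols with complete values and among the 11328 genes tested. They comprised 6 enzymes of the mevalonate pathway (Hmgcs1, Mvk, Pmvk, Mvd, Idi1 and Fdps), 8 enzymes from squalene to cholesterol (Fdft1, Sqle, Lss, Cyp51, Msmo1, Nsdhl, Sc5d and Dhcr7), 5 regulators (Srebf1, Srebf2, Scap, Insig1 and Insig2), 6 enzymes of fatty acid synthesis (Acly, Acaca, Fasn, Scd, Elovl5 and Elovl6), and 6 genes of cholesterol transport and the liver X receptors (Stard4, Soat1, Nr1h3, Nr1h2, Abca1 and Abcg1). Only genes with a mean over 1 TPM in some group entered the tests. The mean was above 1 TPM in control muscle for 25 of the 31 and was 1 TPM or less there for Dhcr7, Fasn, Elovl6, Soat1, Abca1 and Abcg1. Dhcr7 was the 1 gene that exceeded 1 TPM only in injured groups.

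Cells make cholesterol from acetyl-CoA through mevalonate and squalene, and they make fatty acids from the same precursor. SREBP-2, encoded by Srebf2, chiefly drives the sterol genes, and SREBP-1, encoded by Srebf1, chiefly drives the fatty acid genes. SCAP escorts both out of the endoplasmic reticulum when membrane cholesterol is low, and INSIG proteins hold them back when it is high. The liver X receptors Nr1h3 and Nr1h2 sense oxysterols and induce the cholesterol exporters Abca1 and Abcg1, and they also induce Srebf1 and Scd. In injured muscle, macrophages that clear dead fibers take up much cholesterol, and regenerating fibers build new membrane.

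All groups were TA muscles of inbred Lewis rats, which the study's methods describe as male and about 4 months old. In the operated rats a punch of 6 mm removed the full thickness of the middle of 1 TA, and the muscle was then left without repair or was filled with a graft of the animal's own minced muscle (MMG). The contralateral muscle is the unoperated TA of the same rats, and muscles were taken at 3, 7, 14 and 28 days post injury (DPI) from rats labelled as running or as not running. The labels do not say how the rats ran, and the study's text does not mention running. The control muscles, labelled as sham at day 0, were the left and right TA of only 2 rats that the study calls uninjured controls. These 2 rats carry numbers outside those of all operated rats, so a difference from control muscle cannot be told apart from a difference between rat series. Contralateral muscle, which comes from part of the same operated rats, was used as the other reference. At 3 DPI all contralateral muscles came from rats 1 to 32, as did 8 of 10 injured muscles of non-running rats and 8 of 14 of running rats, and the others came from rats numbered above 88.

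After 13 libraries with fewer than 7000 symbols above 1 TPM were dropped, 116 libraries of 114 muscles from 78 rats remained in 31 groups. The kept libraries had 7866 to 10948 symbols above 1 TPM and at most 16.2% of TPM in ribosomal RNA genes. The dropped ones had 901 to 5712 symbols above 1 TPM and 0.0412% to 83.9% of TPM in these genes. Control muscle held 4 muscles. Non-repaired injured muscle of non-running rats held 3, 8, 4 and 4 muscles at 3, 7, 14 and 28 DPI, and both repair arms together held 10, 16, 8 and 8. Contralateral muscle of non-running rats held 4, 10, 4 and 4. Injured muscle of running rats held 14, 8, 8 and 4, and their contralateral muscle held 4, 4 and 4 at 3, 7 and 14 DPI. Control muscle 4 had the fewest symbols above 1 TPM of the kept libraries and the lowest value of the 4 control muscles for most of the genes described. Defining genes of muscle fibers were at high levels in every group, with a median summed level of 10 fiber genes of 241300 TPM in control muscle, 52750 TPM in injured muscle at 3 DPI and 91650 TPM at 7 DPI.

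The gene starts of RefSeq (build GRCr8) were read for sequence that the list did not use. Windows from 250 bases before to 50 bases after the start were given for 23 of the 31 genes. The CCAAT box (CCAAT on either strand), a promoter sequence bound by NF-Y beside many sterol regulatory elements, was in windows of 16 of these 23 genes (69.6%) and in 37.5% of all 33469 windows. The core TCACNCCAC of the sterol regulatory element was in none of the 23 and in 1.12% of all windows. The direct repeat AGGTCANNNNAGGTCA of the liver X receptors was in none of the 23 and in 0.00598% of all windows, both searched on both strands. A match describes the letters only, and no match says only that these letters are not in this window. Windows of 3 genes are shown because Scd changed most of all the genes and Msmo1 and Lss most among the sterol enzymes. The Scd window was chr1:253231682-253231981 on the minus strand, the Lss window chr20:12118181-12118480 on the minus strand and the Msmo1 window chr16:29746863-29747162 on the plus strand. Capitals mark CCAAT or its reverse complement, of which Scd had 0, Lss 1 and Msmo1 3.
Scd: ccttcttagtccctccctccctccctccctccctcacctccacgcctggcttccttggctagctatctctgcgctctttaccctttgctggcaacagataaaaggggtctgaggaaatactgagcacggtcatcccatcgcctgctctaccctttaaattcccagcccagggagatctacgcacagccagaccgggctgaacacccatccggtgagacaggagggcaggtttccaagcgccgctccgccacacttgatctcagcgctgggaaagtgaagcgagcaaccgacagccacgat
Lss: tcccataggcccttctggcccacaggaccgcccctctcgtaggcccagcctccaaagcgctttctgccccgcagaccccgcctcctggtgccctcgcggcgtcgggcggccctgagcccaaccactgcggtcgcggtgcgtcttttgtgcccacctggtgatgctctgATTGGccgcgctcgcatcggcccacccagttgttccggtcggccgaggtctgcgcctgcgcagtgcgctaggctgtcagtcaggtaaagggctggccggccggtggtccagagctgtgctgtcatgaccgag
Msmo1: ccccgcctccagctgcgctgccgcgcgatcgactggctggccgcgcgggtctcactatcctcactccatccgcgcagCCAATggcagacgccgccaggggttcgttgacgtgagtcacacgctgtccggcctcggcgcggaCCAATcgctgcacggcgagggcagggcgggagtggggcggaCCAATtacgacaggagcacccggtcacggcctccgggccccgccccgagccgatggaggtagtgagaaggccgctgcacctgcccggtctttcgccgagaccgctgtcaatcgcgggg

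The first question was how the genes differed between injured and uninjured muscle. Against control muscle, on TPM as deposited, 2 of the 6 mevalonate enzymes and 5 of the 8 enzymes from squalene to cholesterol rose at 3 DPI. So did 4 of the 6 fatty acid enzymes and 4 of the 6 genes of transport and the liver X receptors. At 7 DPI these counts were 1, 4, 5 and 4, and at 28 DPI they were 0, 1, 5 and 3. Counts on TPM of genes that rose after injury at 3 and 7 DPI, here and below, include Dhcr7. This gene passed the filter on level only in injured groups. Fold changes are log2 differences of TPM + 1 from limma, with a standard error (SE), and a gene was called when its Benjamini-Hochberg adjusted p over all tested genes was under 0.05 and its log2 fold change beyond 1. On this scale changes of genes near or under 1 TPM are understated. Differences from control muscle rest on the non-repaired arm alone, while differences from contralateral muscle and the single-muscle levels printed for each gene take in both repair arms. Against control muscle, 17 of the 31 genes rose and 1 fell in non-repaired injured muscle at 3 DPI, where 52.6% of all tested genes were called (48.3% higher and 4.24% lower). At 7 DPI 16 rose and 1 fell, with 48.1% of all genes called (45.6% higher and 2.42% lower). At 14 DPI 9 rose and none fell, with 25.5% of all genes called (25% and 0.547%), and at 28 DPI 9 rose and none fell, with 21.3% called (21.1% and 0.212%). The shares of the 31 genes called were 58.1%, 54.8%, 29% and 29%, near those of all genes on each day. Their median log2 fold change was 1.39, 1.26, 0.66 and 0.58, beside 0.96, 0.91, 0.53 and 0.52 for all tested genes.

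Against contralateral muscle, with both repair arms, 14 rose and 2 fell at 3 DPI, with 41.2% of all genes called (34.8% higher and 6.39% lower), and 17 rose and 1 fell at 7 DPI, with 46.5% called (43.8% and 2.62%). At 14 DPI 8 rose, with 23.7% of all genes called (23.4% and 0.344%), and at 28 DPI 6 rose, with 16.2% called (16% and 0.265%). The median of the 31 genes was 0.83, 1.09, 0.49 and 0.41, and that of all genes was 0.60, 0.87, 0.54 and 0.43. Both comparisons use the same non-repaired injured muscles. TPM gives each gene as a share of its library, and the summed fiber genes took a smaller share after injury. Median-of-ratios size factors, which center most genes, moved the median of all genes against control muscle to 0.09, 0.08, 0.02 and 0.04. With size factors 12 of the 31 genes rose and 2 fell at 3 DPI, where 24.5% of all genes were called higher and 16.9% lower, and at 7 DPI 9 rose and 2 fell, with 21.9% higher and 14.2% lower. At 14 DPI 7 rose and 1 fell (15.8% and 5.9% of all genes), and at 28 DPI 4 rose and none fell (11.5% and 3.17%). Those 4 were Scd, Soat1, Abca1 and Abcg1, and no mevalonate enzyme rose at 3 or 7 DPI with size factors. Against contralateral muscle 11 of the 14 genes that rose at 3 DPI on TPM, 9 of 17 at 7 DPI, 5 of 8 at 14 DPI and 3 of 6 at 28 DPI were also higher with size factors, where 21.2%, 20%, 12% and 8.59% of all genes were called higher and 14.5%, 13.3%, 5.05% and 2.21% lower. Those lost were Idi1, Cyp51 and Elovl6 at 3 DPI, these 3 with Msmo1, Dhcr7, Srebf2, Scap and Stard4 at 7 DPI, Lss, Acly and Elovl5 at 14 DPI, and Fasn, Elovl5 and Soat1 at 28 DPI.

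**Figure D1:**
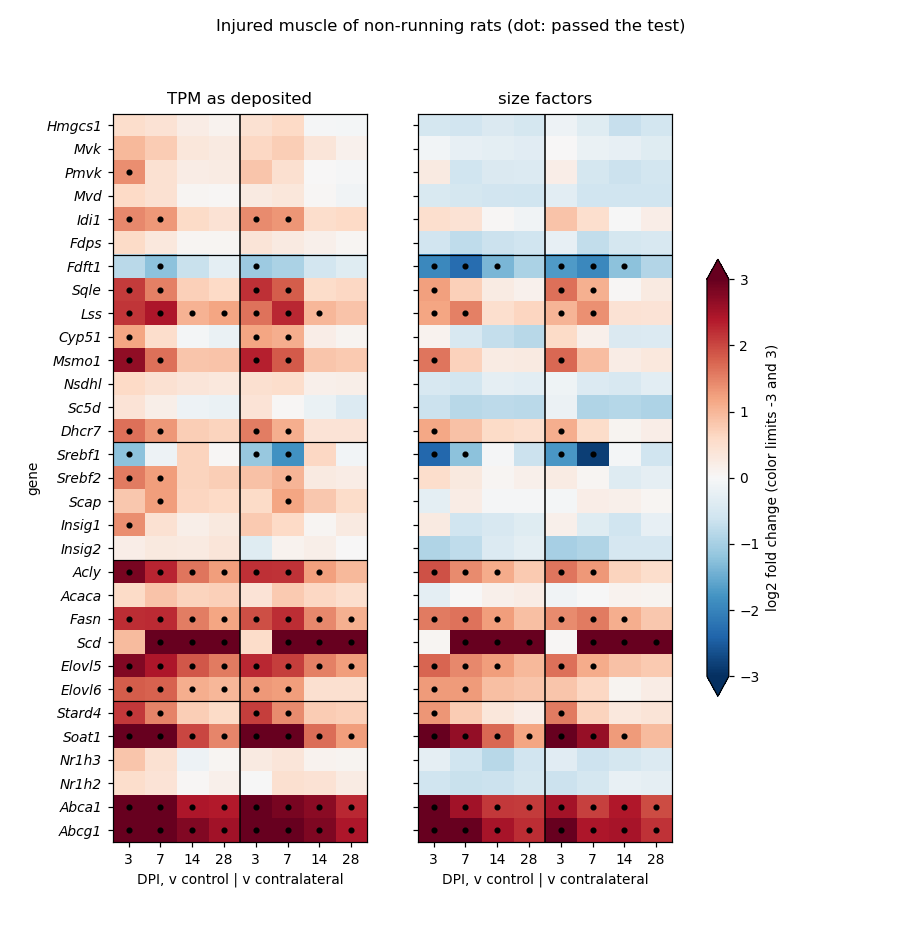
Log2 fold change (color) of each of the 31 genes (rows) in injured muscle of non-running rats, against control muscle (left 4 columns of each panel) and contralateral muscle (right 4 columns) at 3, 7, 14 and 28 DPI, on TPM as deposited and with size factors, with a dot where the test was passed. On TPM 17 genes were higher than in control muscle at 3 DPI, with size factors 12, and Abca1 and Abcg1 have a dot in all 16 columns.

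Scd, stearoyl-CoA desaturase, which makes oleate from stearate, had the largest change of the 31 genes, and most of its rise came between 3 and 7 DPI. Control muscles 1 to 4 had 2.84, 2.11, 2.54 and 1.90 TPM. Injured muscles of non-running rats had a lowest, median and highest level of 3.9, 6.40 and 15.6 TPM at 3 DPI, 161, 219 and 339 TPM at 7 DPI, 133, 187 and 271 TPM at 14 DPI and 46.1, 101 and 214 TPM at 28 DPI. Contralateral muscles had 0.58 to 22.0 TPM at 3 DPI, 1.17 to 7.32 TPM at 7 DPI, 0.80 to 2.03 TPM at 14 DPI and 1.29 to 2.54 TPM at 28 DPI. Every injured muscle from 7 DPI on was thus above every control and contralateral muscle of any day, whereas at 3 DPI the injured muscles overlapped the contralateral ones.

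Against control muscle the log2 fold change of Scd was 0.94 at 3 DPI (SE 0.45, limma adjusted p = 0.0442, under the fold required), 6.10 at 7 DPI (SE 0.36, adjusted p = 3.69e-28), 5.77 at 14 DPI (SE 0.41) and 5.30 at 28 DPI (SE 0.41). Against contralateral muscle it was 0.54 (SE 0.36, adjusted p = 0.148), 5.90 (SE 0.24), 6.33 (SE 0.36) and 5.24 (SE 0.36). Within injured muscle Scd rose by 4.88 between 3 and 7 DPI (SE 0.25, adjusted p = 1.56e-30). With size factors the differences from control muscle were 0.05, 5.20, 5.27 and 4.81, and the change between 3 and 7 DPI was 4.89. At 3 DPI the Scd value against control muscle passed the fold required when control muscle 1 (1.01) or 1 of the 3 injured muscles (1.14) was left out. Against contralateral muscle at 3 DPI it passed without the single contralateral muscle at 22.0 TPM (1.51). Its paralog Scd2 differed by 3.59, 4.09, 3.51 and 3.20 from control muscle. How reads shared by Scd and Scd2 were divided between them cannot be seen in the TPM.

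**Figure D2:**
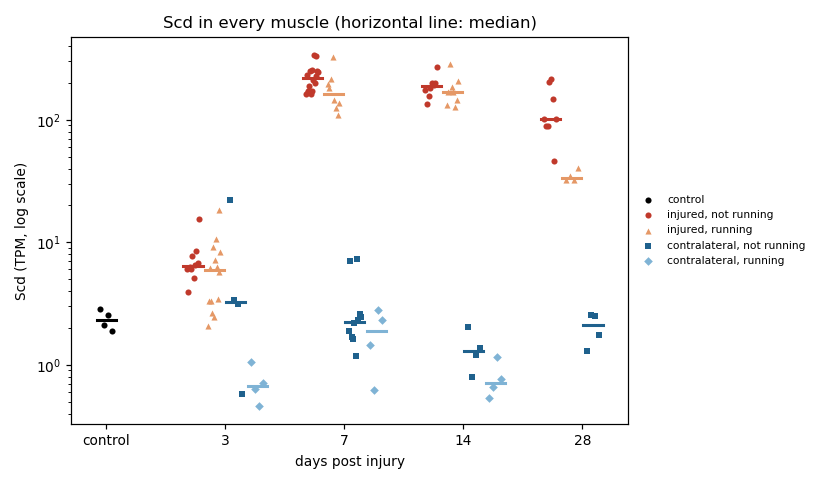
Scd in every muscle (TPM, log axis) by days post injury, with 1 point a muscle and a line at the median of each set (control, contralateral and injured, of non-running and running rats). Injured muscles of non-running rats lie at 3.9 to 15.6 TPM at 3 DPI and at 161 to 339 TPM at 7 DPI, and the 4 injured muscles of running rats at 28 DPI lie at 32.2 to 40.6 TPM, below all 8 of non-running rats.

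None of the other fatty acid enzymes was called between 3 and 7 DPI in injured muscle. The medians of Acly, Fasn, Elovl5 and Elovl6 were highest at 3 DPI and that of Acaca at 7 DPI. Acly, ATP citrate lyase, which supplies cytosolic acetyl-CoA, had 2.44, 3.21, 3.76 and 1.25 TPM in control muscles 1 to 4. In injured muscle its lowest, median and highest level was 19.6, 28.3 and 46.5 TPM at 3 DPI, 11.7, 19.1 and 24.6 TPM at 7 DPI, 8.40, 9.80 and 13.5 TPM at 14 DPI and 6.84, 7.69 and 11.1 TPM at 28 DPI. No injured muscle overlapped a control muscle on any day, and the log2 fold change against control muscle was 2.84, 2.29, 1.60 and 1.26, called on all 4 days. With size factors it was 1.91, 1.42, 1.11 and 0.78, and the call at 28 DPI was lost. Fasn, fatty acid synthase, had 0.79, 0.70, 0.61 and 0.45 TPM in the control muscles. Its injured muscles had 5.67, 8.195 and 19.5 TPM at 3 DPI, 4.85, 7.63 and 9.51 TPM at 7 DPI, 3.25, 3.79 and 5.57 TPM at 14 DPI and 2.03, 2.72 and 4.26 TPM at 28 DPI, all above every control muscle. Fasn rose by 2.22, 2.24, 1.53 and 1.17 against control muscle and by 1.93, 2.23, 1.44 and 1.07 against contralateral muscle. With size factors its value at 28 DPI was 0.90 against control muscle and 0.81 against contralateral muscle, under the fold required.

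Elovl5, an elongase of polyunsaturated fatty acids, had 6.87, 5.94, 7.47 and 3.75 TPM in the control muscles. Its injured muscles had 43.0, 56.2 and 73.8 TPM at 3 DPI, 29.0, 39.9 and 54.4 TPM at 7 DPI, 21.9, 24.2 and 35.4 TPM at 14 DPI and 17.2, 20.0 and 29.4 TPM at 28 DPI. The lowest injured muscle of any day was above the highest control and contralateral muscle, and Elovl5 rose by 2.78, 2.42, 1.86 and 1.55 against control muscle (0.96 at 28 DPI with size factors). Elovl6, which elongates palmitate, was low, with 0.32, 0.53, 0.45 and 0.22 TPM in the control muscles and medians of 4.22, 4.06, 2.01 and 1.69 TPM in injured muscle. Its ranges in injured muscle were 2.58 to 8.19, 2.82 to 4.66, 1.65 to 2.96 and 1.5 to 2.09 TPM. Elovl6 rose by 1.82, 1.76, 1.10 and 1.01 against control muscle. The call at 28 DPI was lost without control muscle 1 (0.99) and without control muscle 4 (0.95), among others, and with size factors those at 14 and 28 DPI were lost (0.91 and 0.83). Acaca, acetyl-CoA carboxylase, which commits acetyl-CoA to fatty acid synthesis, did not pass the fold required on any day, with 0.58, 0.85, 0.67 and 0.72 against control muscle and medians of 5.115, 5.28, 4.72 and 4.48 TPM in injured muscle beside 2.68 TPM in control muscle.

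Summed over the 6 fatty acid enzymes the median level was 15.8 TPM in control muscle, 111 TPM at 3 DPI, 281 TPM at 7 DPI, 239 TPM at 14 DPI and 139 TPM at 28 DPI. The sum at 7, 14 and 28 DPI was mostly Scd. TPM is scaled to transcript length, so levels of these genes can be compared with each other.

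The cholesterol exporters and the storage enzyme Soat1 had the next largest changes. Abca1, which exports cholesterol to apolipoproteins, had 1.05, 1.36, 0.81 and 0.35 TPM in control muscles 1 to 4. Injured muscles had 16.4, 28.4 and 42.0 TPM at 3 DPI, 9.86, 19.0 and 33.5 TPM at 7 DPI, 6.64, 9.93 and 14.6 TPM at 14 DPI and 5.80, 7.71 and 19.0 TPM at 28 DPI. The lowest injured muscle was above the highest uninjured muscle, at 4.4 TPM, and Abca1 rose by 3.89, 3.19, 2.42 and 2.37 against control muscle. Abcg1, which exports cholesterol to HDL, had 0.80, 0.48, 0.87 and 0.73 TPM in the control muscles, and its injured muscles had 26.2, 38.8 and 41.1 TPM, 17.6, 25.0 and 36.4 TPM, 9.37, 10.8 and 17.0 TPM and 6.68, 7.61 and 15.5 TPM in order of day. Abcg1 rose by 4.34, 3.81, 2.79 and 2.51 against control muscle and did not overlap it on any day. Abca1 and Abcg1 were called higher on all 4 days, against both references and on both scales. Their size factor values against control muscle were 3.16, 2.52, 2.13 and 2.09 for Abca1 and 3.58, 3.12, 2.47 and 2.21 for Abcg1.

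Soat1, which esterifies cholesterol for storage, had 0.75, 0.86, 0.88 and 0.41 TPM in the control muscles. Injured muscles had 40.2, 50.2 and 75.5 TPM at 3 DPI, 8.51, 22.3 and 33.4 TPM at 7 DPI, 4.98, 6.01 and 9.13 TPM at 14 DPI and 2.69, 3.995 and 7.28 TPM at 28 DPI. The groups did not overlap control muscle on any day, and the day-to-day drop was wide enough that the 3 DPI muscles all lay above the 7 DPI muscles. In the non-repaired arm, with a mean of 16.8 TPM at 7 DPI, Soat1 rose by 4.74, 3.30, 2.01 and 1.47 against control muscle. With both arms it fell by 1.25 between 3 and 7 DPI and by 1.58 between 7 and 14 DPI in injured muscle. Both changes over time were called with size factors as well (-1.16 and -1.21), while the value against contralateral muscle at 28 DPI was then 0.94. Stard4, a carrier of free cholesterol between membranes, had 1.45, 1.73, 1.60 and 0.67 TPM in the control muscles and 7.38, 11.3 and 17.0 TPM, 3.85, 6.41 and 8.44 TPM, 2.76, 3.11 and 4.19 TPM and 1.85, 2.49 and 3.21 TPM in injured muscle. All injured muscles were above all control muscles. Stard4 rose by 2.12 and 1.49 at 3 and 7 DPI and was at 0.75 and 0.58 at 14 and 28 DPI, under the fold required, and with size factors only the 3 DPI value was called (1.32, with 0.76 at 7 DPI).

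The liver X receptors differed less. Nr1h3 (LXR alpha) had a median of 14.6 TPM in control muscle and 26.5, 19.4, 12.6 and 15.0 TPM in injured muscle, and its log2 fold change against control muscle was 0.83, 0.45, -0.16 and 0.06. Nr1h2 (LXR beta) had 42.8 TPM in control muscle and 69.3, 57.1, 43.7 and 47.1 TPM in injured muscle, with 0.54, 0.41, 0.03 and 0.15. Neither was called on any day. With size factors both were below 0 on all 4 days, at -0.27, -0.59, -0.82 and -0.58 for Nr1h3 and -0.59, -0.66, -0.65 and -0.52 for Nr1h2, without a call.

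**Figure D3:**
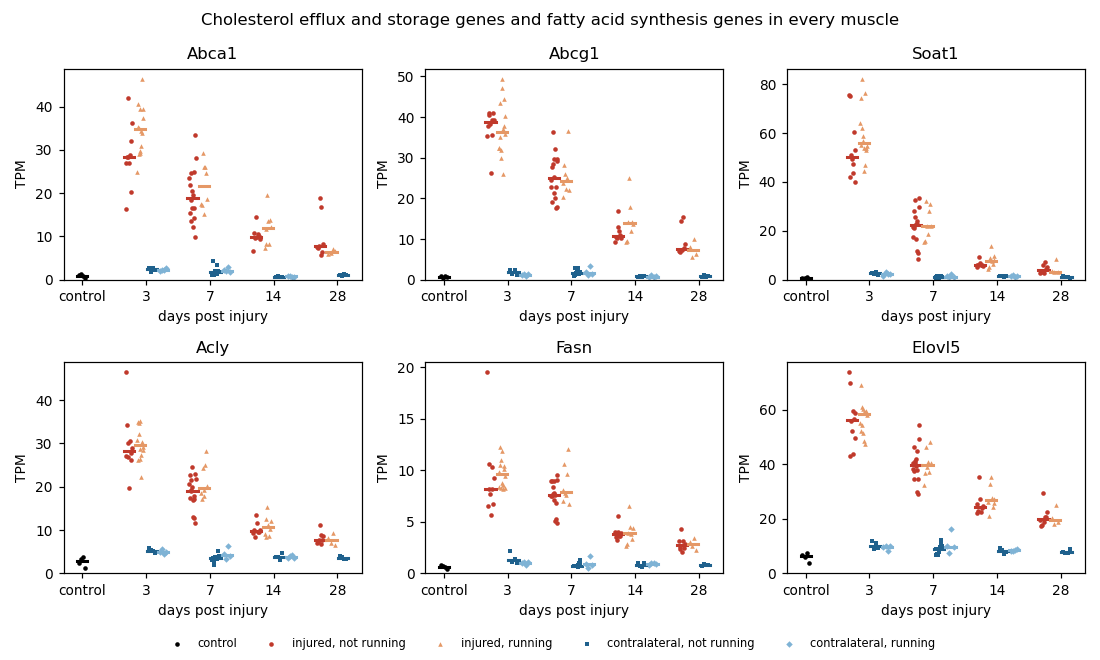
Levels (TPM, linear axes) of Abca1, Abcg1, Soat1, Acly, Fasn and Elovl5 in every muscle by days post injury, with 1 point a muscle and a line at each median. Injured muscles of non-running rats lie above control muscle at all 4 days. Among the days of these rats, the medians of Abca1, Abcg1 and Soat1 are highest at 3 DPI (28.4, 38.8 and 50.2 TPM).

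Of the 8 enzymes from squalene to cholesterol, 5 rose at 3 DPI against control muscle on TPM, where 48.3% of all genes rose. With size factors 4 of these rose, where 24.5% of all genes did, and both counts include Dhcr7. Msmo1, a sterol C4-methyl oxidase, had 5.56, 5.04, 5.54 and 4.72 TPM in control muscles 1 to 4. Injured muscles had 34.5, 45.0 and 65.0 TPM at 3 DPI, 13.8, 21.1 and 27.9 TPM at 7 DPI, 8.34, 11.8 and 13.4 TPM at 14 DPI and 9.23, 10.2 and 15.4 TPM at 28 DPI. No injured muscle overlapped control muscle, and Msmo1 rose by 2.65 at 3 DPI (SE 0.16) and 1.66 at 7 DPI, then stood at 0.84 and 0.87. With size factors the 3 DPI value was 1.61 and still called, and the 7 DPI call was lost against control muscle (0.69) and against contralateral muscle (0.93). It fell by 1.04 between 3 and 7 DPI in injured muscle, a call that was lost without 1 of the 3 non-repaired muscles at 3 DPI (-0.98) and with size factors (-0.95). Sqle, squalene epoxidase, a rate-limiting step, had 1.98, 2.03, 2.03 and 1.15 TPM in the control muscles and 8.97, 13.2 and 27.3 TPM, 4.30, 8.26 and 12.4 TPM, 2.60, 3.90 and 5.27 TPM and 2.65, 3.31 and 3.78 TPM in injured muscle. Its injured muscles were all above control muscle, and Sqle rose by 2.10 and 1.51 at 3 and 7 DPI (1.24 and 0.71 with size factors) and was at 0.71 and 0.59 thereafter.

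Lss, lanosterol synthase, had 3.36, 5.0, 4.99 and 1.69 TPM in the control muscles, and its median in injured muscle was no lower at 7 DPI than at 3 DPI. Injured muscles had 15.2, 21.1 and 24.6 TPM at 3 DPI, 15.9, 23.2 and 33.0 TPM at 7 DPI, 7.02, 8.53 and 11.9 TPM at 14 DPI and 7.24, 8.46 and 14.9 TPM at 28 DPI, all above control muscle. Lss rose by 2.15, 2.42, 1.03 and 1.17 against control muscle and fell by 1.25 between 7 and 14 DPI. The calls at 14 and 28 DPI were lost without control muscle 4 (0.78 and 0.92), that at 14 DPI also without 1 injured muscle (0.94), and with size factors the 4 values were 1.18, 1.5, 0.49 and 0.65. Dhcr7, which makes cholesterol from 7-dehydrocholesterol, had 0.15 to 0.46 TPM in control muscle and medians of 4.34 and 2.59 TPM at 3 and 7 DPI. Its log2 fold changes were 1.65 and 1.31 (1.17 and 0.89 with size factors). Because Dhcr7 entered the tests only through injured groups, its call is no independent support for a rise. Cyp51, lanosterol demethylase, rose by 1.19 at 3 DPI and was at 0.53 at 7 DPI, but its size factor values were 0.11 and -0.48.

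Fdft1, squalene synthase, which turns farnesyl diphosphate to squalene, was the one sterol enzyme called lower after injury. Control muscles had 43.8, 46.0, 48.7 and 35.6 TPM. Injured muscles had 20.2, 24.1 and 31.03 TPM at 3 DPI, 13.6, 17.7 and 23.1 TPM at 7 DPI, 22.9, 26.6 and 29.6 TPM at 14 DPI and 30.97, 37.1 and 43.0 TPM at 28 DPI. At 3, 7 and 14 DPI every injured muscle was below every control muscle, and at 28 DPI they overlapped. Its log2 fold change against control muscle was -0.81, -1.22 (SE 0.12, adjusted p = 8.25e-17), -0.68 and -0.29, so that only the 7 DPI value was called. Against contralateral muscle it was -1.09 (called), -0.95, -0.56 and -0.36. With size factors Fdft1 was called lower at 3, 7 and 14 DPI against both references (-1.93, -2.28 and -1.36 against control muscle). Fdft1 values of single muscles were added after its values were seen. Nsdhl and Sc5d were not called against control muscle, with 0.59 and 0.42 at 3 DPI, and were at -0.48 and -0.64 with size factors. Sc5d, lathosterol oxidase, was at 0.17, -0.14 and -0.20 on the later days against control muscle. Against contralateral muscle it was at 0.42, 0.04, -0.20 and -0.42, the last with a limma adjusted p of 0.00367 and under the fold required.

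Among the mevalonate enzymes, Idi1, isopentenyl diphosphate isomerase, rose by 1.45 at 3 DPI and 1.31 at 7 DPI, from a median of 3.16 TPM in control muscle to 11.1 and 8.46 TPM. Pmvk, phosphomevalonate kinase, rose by 1.40 at 3 DPI, from 22.6 to 57.0 TPM, and was at 0.46 at 7 DPI. Neither was called with size factors (0.51 and 0.43 for Idi1, 0.28 and -0.60 for Pmvk). The entry enzyme Hmgcs1, HMG-CoA synthase, was at 0.54 and 0.44 at 3 and 7 DPI, Mvk at 0.97 and 0.76, Mvd at 0.59 and 0.47 and Fdps at 0.57 and 0.31, without a call. With size factors these 4 were below 0 on all 4 days against control muscle, between -0.08 and -0.76 and without a call. Mvk passed the fold required at 3 DPI without control muscle 2 (1.03) and without control muscle 3 (1.01), among others.

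**Figure D4:**
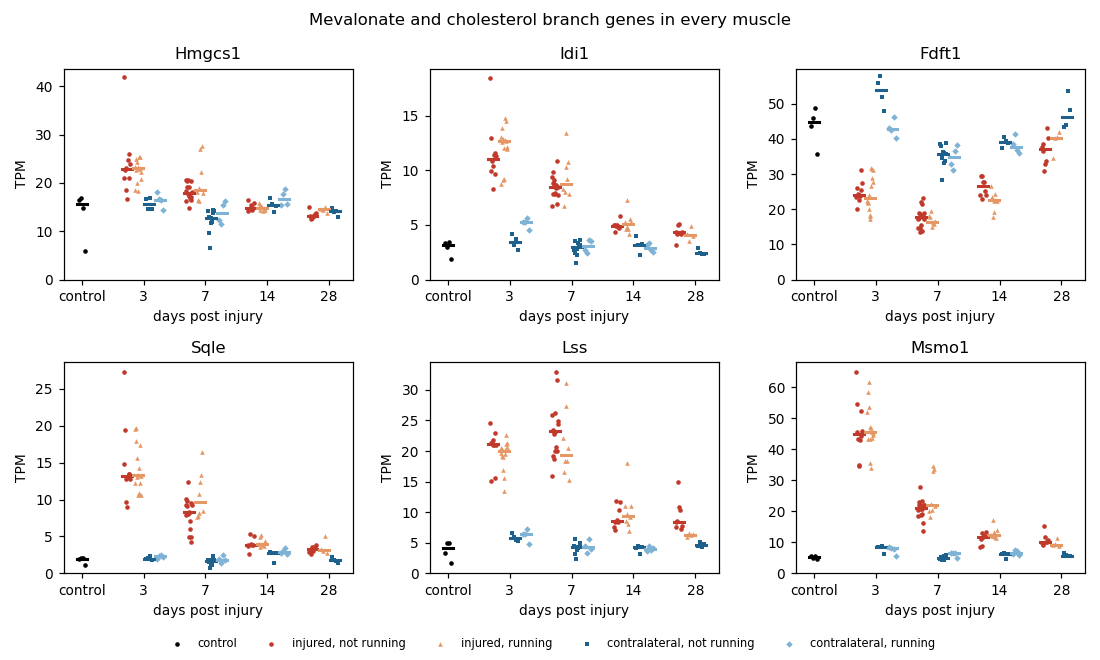
Levels (TPM, linear axes) of Hmgcs1, Idi1, Fdft1, Sqle, Lss and Msmo1 in every muscle by days post injury, with 1 point a muscle and a line at each median. The Msmo1 median in injured muscle of non-running rats falls from 45.0 TPM at 3 DPI to 10.2 TPM at 28 DPI. The Fdft1 medians of the same muscles lie below all control muscles at 3, 7 and 14 DPI. Among the days of these non-running rats the Fdft1 median is lowest at 7 DPI, with 17.7 TPM.

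The regulators did not move alike. Srebf2 rose by 1.56 and 1.26 at 3 and 7 DPI against control muscle, with medians of 24.5 and 19.4 TPM beside 9.02 TPM, but the 7 DPI call was lost without control muscle 4 (0.91) and both with size factors (0.53 and 0.28). Control muscle 4 had 2.89 TPM of Srebf2, and the other 3 had 9.0 to 9.35 TPM. Scap was at 0.80 at 3 DPI and rose by 1.26 at 7 DPI, from a median of 14.2 to 35.9 TPM, and was at 0.63 and 0.61 at 14 and 28 DPI (-0.30, 0.22, -0.03 and -0.04 with size factors). Insig1, itself a target of SREBP-2, rose by 1.39 at 3 DPI, from 17.6 to 49.4 TPM, and was at 0.45, 0.19 and 0.28 thereafter (0.28, -0.59, -0.48 and -0.36 with size factors). Insig2 was at 0.21, 0.29, 0.27 and 0.36 (-0.91, -0.77, -0.41 and -0.29 with size factors) and was not called on any day.

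Srebf1 was lower early after injury. Its single-muscle values are given although it was not among the 12 genes with the largest changes, which was decided after they were seen. Control muscles 1 to 4 had 80.0, 86.2, 52.4 and 29.7 TPM. Injured muscles of non-running rats had 13.2, 16.3 and 45.8 TPM at 3 DPI, 25.4, 48.6 and 100 TPM at 7 DPI, 67.6, 86.0 and 118 TPM at 14 DPI and 35.8, 62.3 and 78.3 TPM at 28 DPI, and they overlapped control muscle on every day. At 3 DPI the log2 fold change was -1.24 against control muscle (SE 0.32, limma adjusted p = 3.06e-04) and -1.14 against contralateral muscle. Both calls were lost without 1 of the 3 non-repaired injured muscles (-0.90 and -0.97), the second also without 1 contralateral muscle (-0.72), and with size factors the values were -2.36 and -1.75. Srebf1 rose by 1.27 in injured muscle between 3 and 7 DPI.

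Contralateral muscle had its own course of Srebf1. Contralateral muscles of non-running rats had 31.4, 34.8 and 104 TPM (lowest, median and highest of 4) at 3 DPI, 124, 175 and 325 TPM (of 10) at 7 DPI, 45.8, 59.9 and 70.0 TPM (of 4) at 14 DPI and 52.9, 57.2 and 65.2 TPM (of 4) at 28 DPI. Those of running rats had 47.1, 63.3 and 75.6 TPM at 3 DPI, 159, 165 and 209 TPM at 7 DPI and 53.4, 63.6 and 65.8 TPM at 14 DPI, with 4 muscles a day. In both sets all muscles at 7 DPI were above all muscles of the other days. In non-running rats Srebf1 rose by 1.95 between 3 and 7 DPI (SE 0.25, limma adjusted p = 4.86e-10), where 2.65% of all genes were called, and fell by 1.57 between 7 and 14 DPI (adjusted p = 3.06e-06), where 0.115% were called. In running rats it rose by 1.49 (2.31% of all genes called) and fell by 1.48 (0.203% called). With all libraries kept the first step in non-running rats was still called (1.5). The other steps were not, at -1.12 in non-running rats (limma adjusted p = 0.251) and 1.24 and -1.0 in running rats (adjusted p = 0.262 and 0.982). The contralateral libraries this added had 3301 and 901 symbols above 1 TPM in non-running rats at 7 DPI. In running rats they had 2816 at 3 DPI and 4860 and 2347 at 7 DPI. Ribosomal RNA genes held 71.5% and 0.0412% of TPM in the former and 80.4% to 83.9% in the latter. The part of these libraries in the lost calls was not tested. Srebf1 was the 1 gene of the 31 called at each of these steps without the dropped libraries. Of the 11328 genes, 2 were higher at 7 than at 3 DPI and lower at 14 than at 7 DPI in both sets, Srebf1 and Nr5a1, a nuclear receptor at a median of 3.64 TPM in non-running and 5.655 TPM in running rats at 7 DPI.

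The 7 DPI contralateral muscles of non-running rats came from rats of 2 ranges of numbers. Those of rats 1 to 32 had 124 and 233 TPM of Srebf1, and the 8 of rats with higher numbers had 124 to 325 TPM. In both sets all contralateral muscles at 3 DPI came from rats 1 to 32 and all at 14 DPI from rats with higher numbers, and all 7 DPI muscles of running rats came from rats 1 to 32, so that the 3 and 7 DPI muscles share a range in both sets and the 7 and 14 DPI muscles only in non-running rats. Against control muscle the 7 DPI contralateral value was 1.59 (SE 0.25, adjusted p = 2.51e-06), where 1.04% of all genes were called (0.9% higher and 0.141% lower), and 1.48 with size factors. It was not called with all libraries kept (1.14, adjusted p = 0.195). Injured muscle at 7 DPI differed from contralateral muscle by -1.81 in non-running and -1.70 in running rats, and from control muscle by -0.15 in non-running rats, where with size factors Srebf1 was called lower (-1.22).

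**Figure D5:**
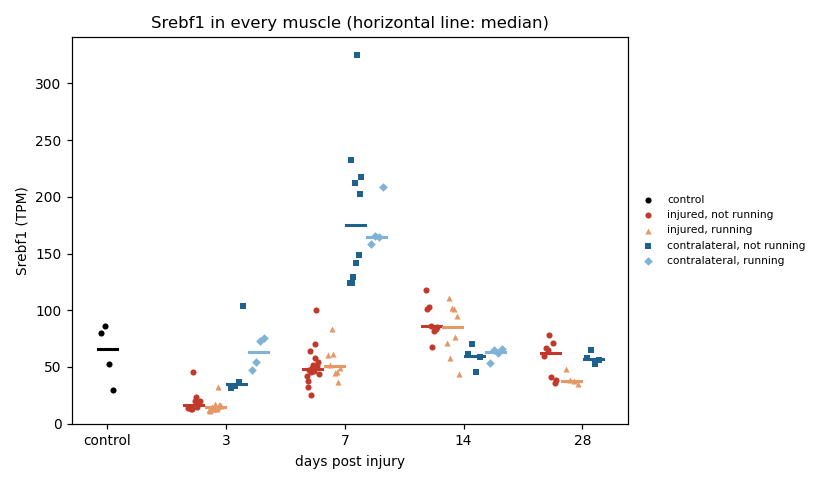
Srebf1 in every muscle (TPM, linear axis) by days post injury, with 1 point a muscle and a line at the median of each set. Contralateral muscles lie at 124 to 325 TPM in non-running rats and 159 to 209 TPM in running rats at 7 DPI, above those of the other days.

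Few of the other genes were called between contralateral and control muscle. Of the 31 genes, 1 was called at 3 DPI, Soat1 (1.04, SE 0.23), where 7.15% of all genes were called (7.09% higher and 0.0618% lower), and none by limma at 14 DPI, where 1.03% were called (0.953% and 0.0794%), or at 28 DPI, where 0.512% were called (0.494% and 0.0177%). The median of the 31 genes was 0.51 at 3 DPI and 0.11, 0.10 and 0.14 thereafter. By limma 23, 8, 8 and 6 of the 31 genes had an unadjusted p under 0.05 in order of day, beside 69.5%, 28.2%, 20.9% and 16.8% of all genes. The Soat1 call was lost without control muscle 4 (0.94) and without either of 2 contralateral muscles (0.95 and 0.95), and no gene of the 31 was called with size factors at 3 DPI.

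Over time in injured muscle, Scd and Srebf1 rose and Soat1 and Msmo1 fell between 3 and 7 DPI, 4 of the 31 genes beside 6.96% of all genes (2.24% higher and 4.71% lower). Between 7 and 14 DPI Soat1, Abcg1 (-1.05) and Lss fell, 3 of the 31 beside 8.88% of all genes (0.865% higher and 8.02% lower), but with size factors Abcg1 and Lss were not called (-0.67 and -0.88). Between 14 and 28 DPI none of the 31 was called by limma, 12 had an unadjusted p under 0.05 (29.6% of all genes did), and 1.13% of all genes were called. At that step Scd was at -0.72 (adjusted p = 0.0755) and Srebf1 at -0.70.

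The second question was whether the minced graft changed these genes. None of the 31 was called in grafted against non-repaired injured muscle at 3, 7, 14 or 28 DPI by limma. At these days 14, 9, 0 and 0 of the 31 had an unadjusted p under 0.05 by limma, beside 17.3%, 27%, 5.23% and 1.24% of all genes. Of all genes 0.00883%, 0.0883%, 0.0265% and 0% were called. The 3 DPI share of the 31 genes was thus above that of all genes, with differences from -0.51 to 0.52 log2 units. That comparison held 3 non-repaired and 7 grafted muscles. The 95% interval of the difference lay within 1 log2 unit of 0 for 29, 30, 31 and 30 of the 31 genes. The exceptions were Srebf1 and Scd at 3 DPI, Soat1 at 7 DPI and Scd at 28 DPI. Soat1 at 7 DPI was at 0.71 (interval 0.38 to 1.04, adjusted p = 0.00538), with means of 26.9 TPM with graft and 16.8 TPM without, and it passed the fold required with all libraries kept (1.04). Cd68, a macrophage gene, had 127 to 289 TPM in these grafted muscles and 40.9 to 197 TPM in the non-repaired ones, which overlapped, and its part in the Soat1 value was not tested. The interval of Scd was -0.38 to 1.22 at 3 DPI and -1.26 to 0.39 at 28 DPI. The injury effect, injured minus contralateral, did not differ between grafted and non-repaired rats for any of the 31 genes by limma at any day (0% of all genes called each day), and 2, 2, 0 and 0 had an unadjusted p under 0.05, beside 2.09%, 11.5%, 0.883% and 0.556% of all genes. Its interval lay within 1 log2 unit for 23, 29, 28 and 27 genes.

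The third question was whether running mattered. Against the contralateral muscle of running rats, 15 of the 31 genes rose and 1 fell at 3 DPI (42.1% of all genes called), 16 rose and 1 fell at 7 DPI (43.7%), and 8 rose at 14 DPI (25.2%). Scd differed by 1.91, 6.00 and 6.61, Abcg1 by 4.15, 3.21 and 3.09 and Srebf1 by -1.96, -1.70 and 0.36. The injury effect did not differ between running and non-running rats for any of the 31 genes by limma, with 4, 0 and 0 at an unadjusted p under 0.05 at 3, 7 and 14 DPI (9.78%, 4.72% and 0.874% of all genes) and 0.159%, 0% and 0% of all genes called. The interval lay within 1 log2 unit for 29, 31 and 30 genes. For Scd at 3 DPI this difference was 1.37 (interval 0.40 to 2.34, adjusted p = 0.210), and it was called without the contralateral muscle at 0.58 TPM (2.34).

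In injured muscle itself, running against no running gave no call among the 31 genes by limma at 3, 7 and 14 DPI, with 5, 7 and 1 at an unadjusted p under 0.05 (16%, 15.8% and 5.17% of all genes) and 0.0177%, 0% and 0% of all genes called. All 31 intervals lay within 1 log2 unit on these days. At 28 DPI Scd was lower in running rats, the 1 gene of the 31 beside 0.309% of all genes. The non-repaired running rats had 32.4 and 34.9 TPM and the grafted ones 32.2 and 40.6 TPM. Non-running rats had 101, 89.4, 214 and 147 TPM without repair and 88.2, 205, 46.1 and 101 TPM with graft. All 4 muscles of running rats were below all 8 of non-running rats, and all 12 came from rats numbered 73 to 88.

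The difference in Scd at 28 DPI was -1.65 (SE 0.36, limma adjusted p = 0.00470) and -1.54 with size factors. The call was lost without 1 of 2 non-repaired running muscles (adjusted p = 0.103) and without 1 of 2 grafted running muscles (adjusted p = 0.105), in each repair arm alone (-1.92 and -1.38) and with all libraries kept (-1.65, adjusted p = 0.0536). The change from 14 to 28 DPI differed between running and non-running rats by -1.54 (adjusted p = 0.0568), which was not called but was so without 1 of several single muscles (as far as -1.71), with 8 of the 31 genes at an unadjusted p under 0.05 (14.5% of all genes) and 0.503% of all genes called. A further 4 running rats at 28 DPI gave 8 libraries whose titles and labels name opposite muscles, so that they entered no comparison, and the higher Scd value of each rat was 31.6, 79.7, 102 and 39.4 TPM, a span that overlaps the non-running rats. Adipoq, an adipocyte gene, had 6.11 to 16.7 TPM in the 4 running muscles that were compared and 5.46 to 17.0 TPM in the 8 others. Cd68 had 17.0 to 74.6 TPM and 13.6 to 59.4 TPM, and both overlapped. The summed fiber genes had 214600 to 228600 TPM in the 4 and 158500 to 221300 TPM in the 8. Summed fibroblast markers had 1948 to 2871 TPM and 1876 to 4426 TPM. The part of any cell type in the Scd difference was not tested.

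In contralateral muscle, running against no running gave 1 call among the 31 genes at 3 DPI, Scd at -1.58 (0.265% of all genes called), and none by limma at 7 and 14 DPI (0.00883% and 0% of all genes), where 3 and 0 genes had an unadjusted p under 0.05 (13.4% and 1.13% of all genes). Running rats had 1.06, 0.63, 0.46 and 0.71 TPM, and non-running rats had 22.0, 3.39, 3.14 and 0.58 TPM. The groups overlapped. Without the muscle at 22.0 TPM the difference was -0.61 (adjusted p = 0.620), and the call was also lost, at differences from -1.49 to -1.66, without any 1 of 5 of the other muscles. That muscle also had the highest Adipoq of the 8, 26.6 TPM beside 1.06 to 19.4 TPM, and its part in the Scd value was not tested.

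Markers of other cell types were counted against control muscle, where 48.3%, 45.6%, 25% and 21.1% of all genes were called higher and 4.24%, 2.42%, 0.547% and 0.212% lower in order of day. All 10 macrophage markers were called higher against control muscle on all 4 days, and their summed level had a median of 25.8 TPM in control muscle (15.2 to 37.7), 7268 TPM at 3 DPI (5618 to 9233), 2940 TPM at 7 DPI (939 to 5426), 589 TPM at 14 DPI (459 to 962) and 411 TPM at 28 DPI (270 to 1246). The sum of contralateral muscle was 169 TPM at 3 DPI (71.9 to 224). The median of this sum was lower on each day than on the one before, and so was that of 20 of the 31 genes (64.5%) and of 39.2% of all tested genes. All 6 fibroblast markers were called higher on every day, with a median sum of 178 TPM in control muscle and 6997, 12060, 5430 and 2855 TPM in injured muscle.

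Of the 10 muscle fiber markers 10, 7, 2 and 1 were called lower in order of day. Of 8 adipocyte markers 7 were tested, and 2, 2, 2 and 7 were called higher, a share under that of all genes at 3 and 7 DPI, with a median sum of 277 TPM in control muscle and 1171, 712, 544 and 620 TPM in injured muscle. Adipoq and Plin1, which define adipocytes, were called higher only at 28 DPI (2.30 and 1.61), with medians of 1.39 TPM of Adipoq in control muscle and 3.17, 3.00, 1.04 and 8.67 TPM in injured muscle, and of 0.26 TPM and 0.73, 0.80, 0.35 and 2.01 TPM of Plin1. Of 8 myelinating Schwann cell markers 6 were tested and 2, 2, 2 and 4 were called higher, and of 5 endothelial markers 3, 4, 3 and 1. The Schwann cell share was under that of all genes at 3 and 7 DPI, and the endothelial share was near it at 28 DPI. The part of these cells in the values of the 31 genes was not tested, and in bulk muscle more cells of a type and more RNA per cell cannot be told apart.

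Other genes of the same pathways, from a list of 39 of which 36 were tested, gave 23 higher and 1 lower at 3 DPI against control muscle, 22 and 1 at 7 DPI, 13 and 0 at 14 DPI and 13 and 0 at 28 DPI, where 48.3%, 45.6%, 25% and 21.1% of all genes were called higher. With size factors, which left 37 tested, 13 were higher and 7 lower, then 9 and 5, 7 and 3, and 6 and 0, where 24.5%, 21.9%, 15.8% and 11.5% of all genes were higher. On TPM their median log2 fold change was 1.32, 1.15, 0.70 and 0.62, beside 0.96, 0.91, 0.53 and 0.52 for all genes. Apoe, an apolipoprotein made by macrophages that accepts exported cholesterol, rose by 6.82, 5.85, 4.86 and 4.34, from a median of 69.1 TPM in control muscle to 8172, 4780, 1938 and 1198 TPM. Npc2, which moves cholesterol out of lysosomes, rose by 3.47, 2.23, 1.28 and 1.18, Fads2, a desaturase, by 2.11, 2.40, 2.19 and 2.0, and Slc25a1, the mitochondrial citrate carrier, by 3.14, 2.78, 1.85 and 1.38. Mlxipl (ChREBP), a glucose-responsive activator of fatty acid synthesis genes, fell by 1.54 at 3 DPI and by 1.51 at 7 DPI, from a median of 25.7 TPM to 7.66 and 5.75 TPM.

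Thrsp, a gene of lipogenic tissue, was among the 3 of these 36 pathway genes called higher in contralateral than in control muscle at 3 DPI (2.11), with Apoe (1.30) and Elovl1 (1.07), where 7.09% of all genes were higher. With size factors only Thrsp was called (1.56, with 0.72 for Apoe and 0.55 for Elovl1). It fell between 3 and 7 DPI in contralateral muscle by 2.27 in non-running and by 2.89 in running rats, and Srebf1 rose there. Adipoq had 1.06 to 26.6 TPM in non-running and 1.31 to 19.4 TPM in running rats in this muscle at 3 DPI. At 7 DPI it had 1.03 to 10.27 TPM and 1.07 to 23.45 TPM. The part of adipocytes in the Thrsp values was not tested.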

How the data were processed

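RNA-seq of 138 TA libraries was analysed from the table of TPM values that the authors deposited, made with kallisto on rat build 6.0 per the study's methods. The processing notes also name DESeq, without a version. TPM keeps no depth, so the depth behind each value is unknown. The table was complete up to Tubb3, and genes listed after it were not analysed here. In all 9 libraries entered no comparison, 8 because title and label named opposite muscles and 1 because its label gave 3 DPI for a rat whose other libraries were labelled 7 DPI. Libraries with fewer than 7000 symbols above 1 TPM were dropped, and libraries of 1 muscle were averaged.

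Values were fitted as log2(TPM + 1) in 1 limma-trend model (limma 3.58.1, R 4.3.3) of 31 groups, with Benjamini-Hochberg adjusted p over all 11328 genes. All adjusted p-values and intervals are limma's. Muscles of a group came from separate rats, except the 4 control muscles of 2 rats. Left and right muscles of a rat share an animal, so a random rat effect was the paired alternative. Over 36 such pairs the mean correlation of deviations was 0.072, with 15 pairs over 0.1. Single-muscle values were given for the 12 genes with the largest called changes, and fold changes for the called genes, the regulators, the liver X receptors, Abca1 and Abcg1. The members and lists were chosen with earlier results of these data known, and the comparisons within running rats, within contralateral muscle and between injury effects were added after values were seen. Alternatives were a pseudocount of 0.1, no filter, size factors, all libraries kept, each library as a sample, a single repair arm, non-running groups alone, adjusted p alone and leaving out each muscle of groups of 2 to 5. Some genes of the other pathway list are not reported here.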

Additional observations from a re-analysis of the deposited data

Results flagged for a closer look

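Single muscles that stood apart from the rest of their group were found by Dixon's test at the 95% level in groups of 4 to 10. There were 25 in 208 checks (12%) over 13 genes and 16 groups. A chance rate of 1 in 20 holds for normal values, while TPM was not transformed and the genes share their muscles. The 12% can therefore not be set against that rate. One contralateral non-repaired muscle at 7 DPI of non-running rats was highest for Scd (7.32 TPM), Abca1 (3.27 TPM) and Srebf1 (324.9 TPM), and 1 grafted contralateral muscle of that day for Scd (6.98 TPM) and Abca1 (4.4 TPM). One non-repaired injured muscle at 28 DPI was highest for Soat1 (7.28 TPM), Abcg1 (15.46 TPM) and Abca1 (16.71 TPM), and 1 grafted muscle of that day for Abca1 (18.98 TPM). One grafted injured muscle at 3 DPI was highest for Acly (46.48 TPM) and Fasn (19.54 TPM), another for Scd (15.55 TPM), and another was lowest for Lss (15.59 TPM). At 7 DPI 1 grafted muscle was highest for Msmo1 (27.88 TPM), another for Lss (32.96 TPM), and 1 non-repaired muscle for Srebf1 (100.4 TPM). At 14 DPI 1 grafted muscle was highest for Acly (13.47 TPM), and non-repaired muscles were lowest for Abca1 (6.64 TPM) and Sqle (2.6 TPM). Control muscle 4 was lowest for Sqle (1.15 TPM).

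In non-repaired injured muscle of running rats, 1 muscle at 7 DPI was highest for Sqle (16.43 TPM) and Stard4 (8.92 TPM), 1 at 3 DPI was highest for Srebf1 (32.17 TPM), and at 14 DPI 1 was highest for Elovl6 (2.92 TPM) and another lowest for Stard4 (3.04 TPM). Outside the comparisons, 4 of the 9 libraries without a group, all at 28 DPI, had Scd above the control muscles, with 31.56, 79.68, 101.7 and 39.41 TPM.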

How the results depend on the processing

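Values here are counts of the 31 genes called, in order of day. With a rat as a random replicate block the counts against control muscle were 18, 17, 9 and 9 and those against contralateral muscle 16, 18, 8 and 6, as without it, and the block changed no other count. No filter, each library as a sample and non-running groups alone left every count within 1.5 times of that reported.

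With the adjusted p alone, without the fold, and with the share of all genes passing in parentheses, the counts were 30, 29, 22 and 22 against control muscle (85.2%, 88.2%, 72.3% and 71.8%), 29, 29, 20 and 19 against contralateral muscle (82.9%, 91.6%, 77.8% and 71.8%), 28, 29 and 21 in running rats (84.1%, 85.9% and 78.7%), 26, 27 and 4 between days in injured muscle (61.1%, 79.1% and 16.3%), 21, 5, 3 and 1 for contralateral against control muscle (66.4%, 14.9%, 6.91% and 2.2%), 20, 6 and 1 between days in contralateral muscle (60%, 5.56% and 0.715%), 11 and 4 in that of running rats (31.4% and 4.59%), and 1 for graft at 7 DPI (8.19%). With size factors they were 11 at 7 DPI and 4 at 28 DPI against control muscle (36.1% and 14.7% of all genes called). They were 11 and 3 against contralateral muscle on these days (33.3% and 10.8%), and 0 for contralateral against control muscle at 3 DPI (3.26%). With a pseudocount of 0.1 they were 6, 3, 2 and 1 for contralateral against control muscle, 2 and 3 in contralateral muscle for 7 against 3 and 14 against 7 DPI, and 3 for the latter in running rats. With all libraries kept they were 0 for contralateral against control muscle at 7 DPI, 1 for graft at 7 DPI, 0 for running in injured muscle at 28 DPI and in contralateral muscle at 3 DPI, 9 and 0 in contralateral muscle for 7 against 3 and 14 against 7 DPI, and 0 and 0 in that of running rats. In each repair arm alone the counts for running were 0 in injured muscle at 28 DPI and 0 in contralateral muscle at 3 DPI. The cause was not tested. For the pseudocount of 0.1, all libraries kept, each repair arm alone and 1 muscle left out, the shares of all genes are not reported here. Counts under these settings thus describe only how the calls depend on the setting, and are no result about the 31 genes.

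Leaving out 1 muscle gave 18 to 19, 16 to 17, 8 to 9 and 7 to 9 against control muscle, 15 to 17, 17 to 18, 7 to 8 and 6 to 6 against contralateral muscle, 3 to 5 and 3 to 3 for 7 against 3 and 14 against 7 DPI, 0 to 2 and 1 to 1 for contralateral against control muscle at 3 and 7 DPI, and 0 to 1 for running at 28 DPI in injured and at 3 DPI in contralateral muscle. It gave 16 to 17, 17 to 19 and 8 to 8 in running rats, 1 to 2 and 1 to 1 between days in contralateral muscle, 1 to 1 and 1 to 2 in that of running rats, and 0 to 1 for the injury effect by running at 3 DPI and for the change from 14 to 28 DPI. Graft against no repair at 7 DPI, with 8 muscles in each group, was not refitted in this way, and the other comparisons stayed at 0. TPM values hold no depth, so counting error could not be given, and 4 control muscles of 2 rats limit every comparison with control muscle.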

Other observations

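In 4 of the running rats at 28 DPI the title and the label of each library name opposite muscles, and each rat had 1 library with low and 1 with high Scd. The libraries with low Scd had 1.23, 1.11, 2.15 and 0.37 TPM of Scd, 0.87 to 1.23 TPM of Abca1 and 62.1 to 140 TPM of Srebf1. Those with high Scd had 4.63 to 8.75 TPM of Abca1 and 54.9 to 58.7 TPM of Srebf1. The library labelled 3 DPI, from a rat whose other libraries were labelled 7 DPI, had 2.54 TPM of Scd and 67.7 TPM of Srebf1.

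Nr5a1 had 0.41 to 0.43 TPM in contralateral muscle of non-running rats at 3 DPI, 2.19 to 7.61 TPM at 7 DPI and 0.89 to 1.48 TPM at 14 DPI.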
